A study of Mus musculus with 14 samples.

Results

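The 47 actin cytoskeleton genes described here were chosen by symbol for what their proteins do to actin filaments. They fall into 9 roles. There are 2 actins, 7 subunits of the Arp2/3 complex, 5 nucleation promoting factors, 4 monomer-binding proteins, 9 proteins of filament severing, capping and turnover, 6 proteins of filament elongation and bundling, 5 linkers to membrane and adhesion sites, 4 chains of non-muscle myosin II, and 5 GTPases or exchange factors. All 47 were listed in each of the 3 tables, which held 15319 genes for the tumor-infiltrating lymphocytes (TILs), 19825 for the Prdm1 experiment and 15216 for the Bcl6 experiment, and all 47 reached the mean of 1 FPKM that a gene needed to be tested. FPKM is the fragment count scaled by gene length and library size.

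RNA came from CD8+ T cells inside E.G7 tumors, an ovalbumin-expressing mouse lymphoma placed under the skin, and each of 7 groups had 2 libraries. Bcl6+, TIM-3+ and DN TILs were sorted 21 days after tumor inoculation, all from mice that carry the Bcl6-RFP reporter. What DN abbreviates is not spelled out in the labels. In the other experiments, OT-I cells, whose transgenic receptor recognizes ovalbumin, were recovered about 8 days after transfer as Prdm1-overexpressing cells with control cells, or as Bcl6-overexpressing cells with control cells. The controls, labelled Prdm1neg and Bcl6neg, were transferred together with overexpressing cells. The overexpression vector, what the control cells carried, and the ages of the animals are not given in the labels.

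Actin filaments grow from monomers that profilin and the beta-thymosins hold in a soluble pool. The Arp2/3 complex starts branches from existing filaments when WASP or the WAVE complex activates it downstream of Rac and Cdc42, capping protein and cofilin limit and recycle filaments, and myosin II pulls on them. T cells use this machinery to crawl and to build the immune synapse, and in humans inherited loss of WAS, CORO1A, DOCK2 or DOCK8 causes immunodeficiency. Genes of actin and its partners are classic targets of serum response factor (SRF), which binds the CArG box and whose MRTF coactivators are held back by free actin monomers.

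Total counts per library ranged from 18309162 to 22322079. Replicates are not stated to be separate animals, so each p-value measures only the spread between these samples, and in bulk RNA fewer cells of a type cannot be told apart from less RNA per cell. Bcl6 measured 416 ± 15 CPM (counts scaled to library size with TMM factors) in Bcl6+, 16.4 ± 2.4 in TIM-3+ and 92.2 ± 2.9 in DN TILs, and 80.3 ± 18.6 in Bcl6-overexpressing against 3.95 ± 0.19 in control OT-I cells (SD, n = 2 each). Prdm1 measured 174 ± 26 CPM in Prdm1-overexpressing and 99.2 ± 13.8 CPM in control OT-I cells (SD, n = 2 each), a difference that missed the threshold (adjusted p = 0.092). Of 12 CD8 T cell markers 10 were listed, none was at 0 in any library, and their sum ranged from 6539 to 10962 CPM. Strand use in counting is not stated, and reads of near-identical copies, such as Actb, Actg1 and their pseudogenes or Myl12a and Myl12b, may be shared between them.

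Actb, which encodes cytoplasmic beta-actin (ENSMUSG00000029580, mm10 chromosome 5, 142903115 to 142906754, minus strand), was the most abundant gene by count in all 6 TIL libraries. It took 1.82% and 1.84% of all counts in Bcl6+ TILs, 3.38% and 3.58% in TIM-3+ TILs and 2.11% and 2.18% in DN TILs. Every Bcl6+ library lay under every DN library, and every DN library under every TIM-3+ library. All 47 genes together took 4.88% and 4.86% of counts in Bcl6+, 7.63% and 7.84% in TIM-3+ and 5.49% and 5.52% in DN TILs, while without Actb the sums were 3.06% and 3.02%, 4.24% and 4.26% and 3.38% and 3.35% in that order. So the groups stood in the same order without Actb. The mean Actb share in Bcl6+ TILs was 0.525 of that in TIM-3+ TILs and 0.853 of that in DN TILs, and the TIM-3+ share was 1.62 times the DN share. With 2 libraries against 2, an exact permutation test of a share cannot give a two-sided p below 0.33, so shares are given without a test.

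**Figure D1:**
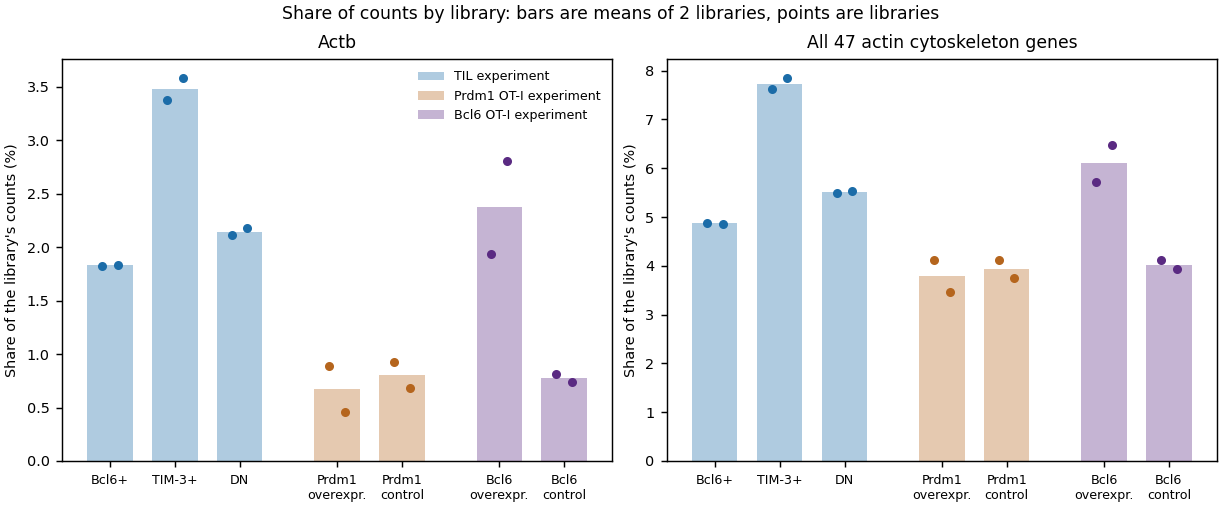
Share of each library's counts (%) taken by Actb, on the left, and by all 47 actin cytoskeleton genes, on the right. Bars are means of 2 libraries and points are libraries; TIM-3+ TILs stand highest, with an Actb share of 3.38% and 3.58%, and Bcl6-overexpressing OT-I cells stand above their controls, at 1.94% and 2.81% against 0.814% and 0.739%.

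In the test across all genes Actb was lower in Bcl6+ than in TIM-3+ TILs, with 17391 and 17554 CPM in Bcl6+ and 36498 and 38907 CPM in TIM-3+ libraries, a log2 fold change of -1.11 (SE 0.027, adjusted p = 1.6e-12). Actg1, which encodes the second cytoplasmic actin, gamma-actin (ENSMUSG00000062825, mm10 chromosome 11, 120345690 to 120348542, minus strand), had 634 and 716 CPM in Bcl6+, 2426 and 2324 in TIM-3+ and 1009 and 1052 in DN TILs. Both Bcl6+ libraries were lowest and both TIM-3+ libraries highest. The log2 fold change of Actg1 was -1.81 (SE 0.060, adjusted p = 4.1e-11) for Bcl6+ over TIM-3+, -0.61 (SE 0.058, adjusted p = 7.5e-06) for Bcl6+ over DN and 1.21 (SE 0.059, adjusted p = 4.7e-09) for TIM-3+ over DN TILs. The log2 fold change of Actb was smaller in size than that of Actg1 in each of these comparisons, with -0.25 (SE 0.026, adjusted p = 2.2e-05) for Bcl6+ over DN and 0.86 (SE 0.027, adjusted p = 7.6e-11) for TIM-3+ over DN TILs.

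Because SRF is known for its actin targets, the promoter windows of RefSeq (GRCm38.p6) were searched for the CArG box. The windows ran from 250 bases before to 50 after each gene's start. The pattern sought was CC, then only A or T, then GG. This pattern is the same on both strands, though the letters of a single box need not be. Actb, Coro1b, Nckap1l and Rac2 had no window and were not searched. Of the 43 members with a window, 4 (9.3%) held the box, against 535 of 32851 windows (1.63%) or 488 of 27025 genes (1.81%) in all. A match is only a description of these letters. The 4 stretches are shown because they are the members' matches, 5′ to 3′ on the gene's strand, with the box in capitals.
Actg1, chr11:120348546-120348615, minus strand: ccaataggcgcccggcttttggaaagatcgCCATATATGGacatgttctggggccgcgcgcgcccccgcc
Vcl, chr14:20929148-20929210, plus strand: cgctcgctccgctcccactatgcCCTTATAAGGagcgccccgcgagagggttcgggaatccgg
Myl6, chr10:128493020-128493089, minus strand: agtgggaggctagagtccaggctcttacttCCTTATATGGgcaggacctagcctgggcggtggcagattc
Arpc4, chr6:113377863-113377902, plus strand: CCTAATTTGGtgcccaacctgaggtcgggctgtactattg
The box began 90 bases before the RefSeq start for Actg1, 227 for Vcl, 250 for Arpc4 and 50 for Myl6. RefSeq starts differ from those of the gene positions given elsewhere, which are GENCODE's: from these the box lay 43 bases before the start of Actg1, 227 before that of Vcl and 252 before that of Arpc4. Myl6 had 2 windows, and the one with the box belongs to an inner start, so that the box lay 1086 bases inside the GENCODE gene. Between Bcl6+ and TIM-3+ TILs, Actg1, Myl6 and Arpc4 were lower in Bcl6+ TILs with log2 fold changes of -1.81, -0.63 and -0.83, and Vcl was higher at 1.59. Any part of SRF in these differences was not tested.

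Between Bcl6+ and TIM-3+ TILs most of the cytoskeleton genes were lower in Bcl6+ TILs, as both actins were. Of the 47 genes 38 were lower and 5 higher in Bcl6+ TILs at an adjusted p under 0.05, while over all 9748 genes tested 19.6% were lower and 19.1% higher. The median log2 fold change of the 47 was -0.56, against 0.01 over all genes tested, and 5 of the called genes were lower and 3 higher by at least 2-fold, beside 6.57% and 8.9% of all genes. The lower genes covered every role. The size of the difference depends on the scaling: with library totals in place of TMM the median over all genes moved to 0.19, with 29.7% of genes higher and 13.2% lower, and 31 members stayed lower and 6 were higher. Scaled to TPM, an abundance per transcript length, the all-gene median was 0.27, with 36.2% higher and 11.4% lower, and 29 members stayed lower and 7 were higher. The 9 that lost their call there were Arpc1b, Arpc3, Was, Dstn, Capg, Capza1, Coro1b, Myh9 and Dock2.

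All 7 subunits of the Arp2/3 complex, the branching nucleator, were lower in Bcl6+ than in TIM-3+ TILs, with log2 fold changes between -1.06 and -0.26, and with Arpc3 turning to 0.002 when scaled to TPM. Actr3, the Arp3 subunit (ENSMUSG00000026341, mm10 chromosome 1, 125392905 to 125435727, minus strand), had 769 and 762 CPM in Bcl6+, 1604 and 1596 in TIM-3+ and 1063 and 1077 in DN TILs. The 3 groups did not overlap, and the log2 fold change was -1.06 (SE 0.047, adjusted p = 6.7e-10) for Bcl6+ over TIM-3+. Its partner Actr2, the Arp2 subunit, had 413 and 408 CPM in Bcl6+ and 604 and 607 CPM in TIM-3+ TILs, a log2 fold change of -0.56 (SE 0.062, adjusted p = 7.4e-06). Of the factors that switch the complex on, 3 of 5 were lower: Was, which encodes WASP, and Nckap1l and Cyfip2, subunits of the WAVE complex. Wipf1, which encodes the WASP partner WIP, was higher, with 419 and 334 CPM in Bcl6+ and 279 and 311 CPM in TIM-3+ TILs and a log2 fold change of 0.35 (SE 0.099, adjusted p = 0.013). The call of Wipf1 rested on single libraries: without Bcl6+ replicate 1 its log2 fold change was 0.18 (adjusted p = 0.15), and without TIM-3+ replicate 1 it was 0.27 (adjusted p = 0.096). Wasf2, the WAVE2 gene, had a log2 fold change of 0.19 (SE 0.080, adjusted p = 0.071).

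The genes of the monomer pool differed among themselves. Pfn1 encodes profilin, which feeds monomers to growing ends, and had 2121 and 2166 CPM in Bcl6+ and 4210 and 4262 CPM in TIM-3+ TILs, a log2 fold change of -0.98 (SE 0.036, adjusted p = 1.4e-10). Tmsb4x, the thymosin beta-4 gene, had 3289 and 3198 CPM in Bcl6+ and 5987 and 5940 CPM in TIM-3+ TILs, a log2 fold change of -0.88 (SE 0.035, adjusted p = 2.3e-10). Its relative Tmsb10, which encodes the monomer-binding thymosin beta-10 (ENSMUSG00000079523, mm10 chromosome 6, 72957347 to 72958748, minus strand), went the other way, with 1108 and 997 CPM in Bcl6+, 769 and 863 in TIM-3+ and 1132 and 1073 in DN TILs. The TIM-3+ libraries were the lowest of the 6 for Tmsb10, and the log2 fold change was 0.37 (SE 0.067, adjusted p = 0.00061) for Bcl6+ over TIM-3+ and -0.43 (SE 0.067, adjusted p = 0.00024) for TIM-3+ over DN; after length and GC trends were removed that last value was -0.15 (adjusted p = 0.11).

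Genes of severing, capping and turnover were lower in Bcl6+ than in TIM-3+ TILs for 8 of 9. The largest difference was in Coro1a (ENSMUSG00000030707, mm10 chromosome 7, 126699773 to 126707787, minus strand), which encodes the leukocyte coronin that helps disassemble filaments: it had 853 and 951 CPM in Bcl6+, 1987 and 1949 in TIM-3+ and 1346 and 1287 in DN TILs. The groups did not overlap, and the log2 fold change for Bcl6+ over TIM-3+ was -1.12 (SE 0.055, adjusted p = 2.1e-09). Cfl1, the cofilin gene, had a log2 fold change of -0.56 (SE 0.045, adjusted p = 3.1e-07), and Capzb, the beta subunit of capping protein, of -0.92 (SE 0.054, adjusted p = 1.4e-08). Coro1b, a second coronin gene, was at -0.24 and turned to 0.03 when scaled to TPM. The exception was Gsn, which encodes the severing protein gelsolin, with 57.1 and 45.6 CPM in Bcl6+ and 55.4 and 47.3 CPM in TIM-3+ TILs (adjusted p = 1).

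Cross-linkers and adhesion linkers changed in both directions, and Actn1 had the largest change of the 47 genes. Actn1 encodes alpha-actinin-1, a filament cross-linker at adhesion sites (ENSMUSG00000015143, mm10 chromosome 12, 80167547 to 80260371, minus strand), and had 348 and 326 CPM in Bcl6+, 59.99 and 63.2 in TIM-3+ and 124 and 136 in DN TILs. Bcl6+ TILs thus held 5.47 times the TIM-3+ level, a log2 fold change of 2.45 (SE 0.095, adjusted p = 2e-10). Evl, an Ena/VASP protein that speeds filament elongation (ENSMUSG00000021262, mm10 chromosome 12, 108554720 to 108688516, plus strand), had 78.8 and 70.8 CPM in Bcl6+, 24.1 and 21.8 in TIM-3+ and 47.8 and 47.6 in DN TILs, and a log2 fold change of 1.71 (SE 0.15, adjusted p = 9.7e-07) for Bcl6+ over TIM-3+. Vcl, the gene of vinculin, which ties integrin complexes to actin (ENSMUSG00000021823, mm10 chromosome 14, 20929398 to 21033676, plus strand), had 48.5 and 50.1 CPM in Bcl6+, 17.0 and 15.8 in TIM-3+ and 26.6 and 27.2 in DN TILs, and a log2 fold change of 1.59 (SE 0.18, adjusted p = 1.1e-05) for Bcl6+ over TIM-3+. For all 3 genes both Bcl6+ libraries were highest and both TIM-3+ libraries lowest. Flna, which encodes filamin A, a cross-linker of orthogonal networks (ENSMUSG00000031328, mm10 chromosome X, 74223461 to 74249820, minus strand), had the opposite order, with 328 and 339 CPM in Bcl6+, 867 and 809 in TIM-3+ and 567 and 498 in DN TILs and a log2 fold change of -1.33 (SE 0.072, adjusted p = 5.6e-09) for Bcl6+ over TIM-3+. Talin, encoded by Tln1 and the partner of vinculin at integrin tails, was lower in Bcl6+ than in TIM-3+ TILs at -0.79 (SE 0.072, adjusted p = 9.2e-07), as were Lcp1, which encodes the leukocyte bundler L-plastin, at -0.63, and Actn4, the other non-muscle alpha-actinin, at -0.47. Of the 3 ERM genes, whose proteins anchor filaments to the membrane, Ezr and Rdx were lower at -0.62 and -0.49, and Msn had 1974 and 1978 CPM in Bcl6+ and 2110 and 2093 CPM in TIM-3+ TILs (adjusted p = 0.14). The direction of Msn depended on the scaling, at 0.17 and called higher with TPM and at -0.16 and called lower with length and GC trends removed.

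Of the myosin II genes 3 of 4 were lower. Myl12a, Myl6 and Myh9, a regulatory light chain, the essential light chain and the heavy chain of non-muscle myosin II, were lower in Bcl6+ than in TIM-3+ TILs at log2 fold changes of -0.85, -0.63 and -0.30; Myl12b was at -0.06 (adjusted p = 0.86). Of the signalling genes upstream of actin, Cdc42 was lower at -0.90, the exchange factor gene Dock8 at -0.83, Rac2 at -0.64 and the Rac exchange factor gene Dock2 at -0.23, which turned to 0.03 and lost its call when scaled to TPM. Cdc42, which encodes the GTPase that activates WASP, had 725 and 715 CPM in Bcl6+, 1382 and 1305 in TIM-3+ and 869 and 870.4 in DN TILs. These 3 groups did not overlap.

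**Figure D2:**
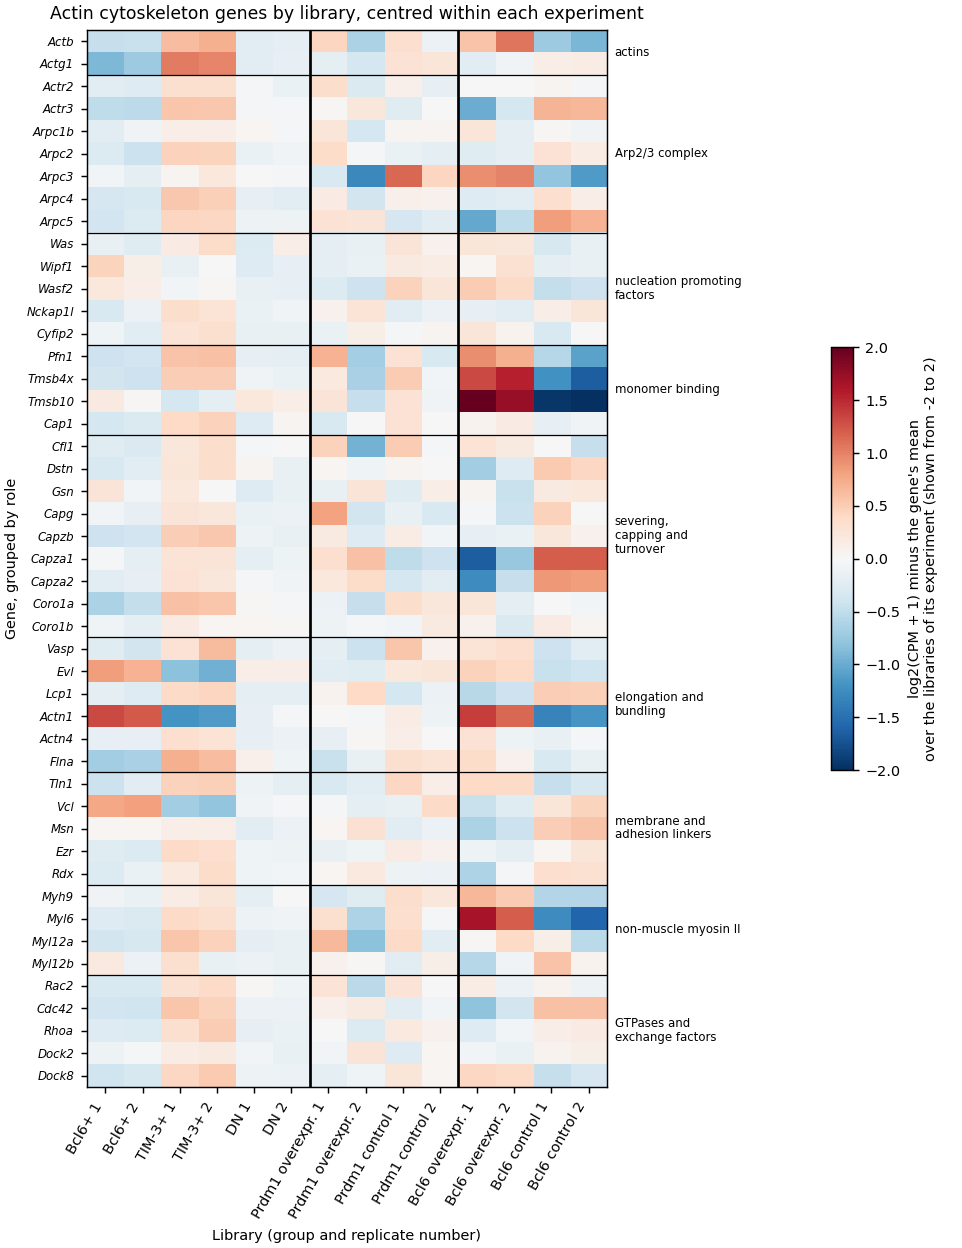
Level of each of the 47 genes (rows, grouped by role) in each of the 14 libraries (columns) as log2(CPM + 1) minus the gene's mean within its experiment; red is above and blue below that mean, and colours are capped at 2 in either direction. Most rows are blue in Bcl6+ and red in TIM-3+ TILs, with Actn1, Evl and Vcl reversed, while in the Bcl6 experiment rows of 1 role differ from each other.

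DN TILs stood between the others for most genes. In 29 of 47 genes (61.7%) every Bcl6+ library was under every DN library and every DN library under every TIM-3+ library, an order found in 11.2% of all genes tested. The reverse order held for 3 genes (6.38%), Actn1, Evl and Vcl, and in 10.1% of all genes tested. The comparisons of Bcl6+ and of TIM-3+ with DN TILs share the DN libraries, and their counts are given side by side. For Bcl6+ over DN TILs 6 genes were higher and 14 lower, beside 6.49% higher and 7.69% lower over all genes, with a median log2 fold change of -0.15, against 0.00 over all genes. For TIM-3+ over DN TILs 34 were higher and 4 lower, beside 14.9% higher and 13.2% lower over all genes, with a median of 0.41, against -0.01. With library totals in place of TMM the all-gene median of this comparison was -0.18, with 8.91% of genes higher and 22.3% lower, and 30 members stayed higher and 4 lower. Scaled to TPM, that median was -0.20, with 8.43% higher and 24.1% lower, and 28 members stayed higher and 4 lower.

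The 6 genes higher in Bcl6+ than in DN TILs were Actn1, at a log2 fold change of 1.38 (SE 0.090, adjusted p = 2.2e-07), Vcl at 0.87 (SE 0.18, adjusted p = 0.0043), Evl at 0.65 (SE 0.15, adjusted p = 0.0092), Wipf1 at 0.50 (SE 0.0995, adjusted p = 0.0035), Wasf2 at 0.33 (SE 0.080, adjusted p = 0.012) and Msn at 0.22. Wasf2 had 246 and 233 CPM in Bcl6+ and 191 and 190.2 CPM in DN TILs, and the groups did not overlap. Without DN replicate 1 every call but that of Actn1 was lost, and fewer of all genes were called in that fit too. The log2 fold changes stayed near those given, with Vcl at 0.86, Wipf1 at 0.45, Evl at 0.66 and Wasf2 at 0.34. The calls of Evl and Wasf2 were also lost without DN replicate 2 (adjusted p = 0.086 and 0.096) and without Bcl6+ replicate 1 (0.060 and 0.056). Among the 14 lower genes were Flna at -0.68 (SE 0.071, adjusted p = 1.7e-05), Coro1a at -0.55 (SE 0.055, adjusted p = 1.2e-05), Actr3 at -0.48 (SE 0.046, adjusted p = 8.1e-06) and Tmsb4x at -0.29 (SE 0.034, adjusted p = 5.6e-05), and 10 of the 14 were called under every alternative setting tried.

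In TIM-3+ over DN TILs the largest rises after Actg1 and Actb were in Pfn1 at 0.77 (SE 0.036, adjusted p = 3.6e-09), Arpc4 at 0.69 (SE 0.070, adjusted p = 5.3e-06) and Myl12a at 0.67 (SE 0.070, adjusted p = 7.1e-06). Arpc4, a core subunit of the Arp2/3 complex, had 445 and 424 CPM in TIM-3+ and 274 and 264 CPM in DN TILs, and Myl12a had 460.0 and 433 CPM in TIM-3+ and 279 and 283 CPM in DN TILs. Neither pair of groups overlapped. The 4 lower genes were Actn1 at -1.08 (SE 0.092, adjusted p = 1.1e-06), Evl at -1.06 (SE 0.15, adjusted p = 0.00015), Vcl at -0.72 (SE 0.18, adjusted p = 0.0095) and Tmsb10, given above. The call of Vcl was lost without DN replicate 1 (adjusted p = 0.051), DN replicate 2 (0.059) or TIM-3+ replicate 2 (0.051).

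Markers of other cells differed between the TIL groups. The 14 macrophage and monocyte markers summed to 328 and 291 CPM in Bcl6+, 79.5 and 62.5 in TIM-3+ and 173 and 185 in DN TILs. All 9 tested were higher in Bcl6+ than in TIM-3+ TILs, and Mrc1 was at 0 in 1 TIM-3+ library. The 10 listed CD8 markers summed to 7343 and 7346 CPM in Bcl6+, 10962 and 10767 in TIM-3+ and 8190 and 8120 in DN TILs, and 8 of 10 were lower in Bcl6+ than in TIM-3+ TILs. The 8 listed of 10 fibroblast and smooth muscle markers summed to 25.7 and 30.6 CPM in Bcl6+, 4.54 and 6.19 in TIM-3+ and 36.4 and 31.4 in DN TILs. Endothelial markers summed to 83.4 and 115 CPM in Bcl6+, 37.8 and 44.5 in TIM-3+ and 79.5 and 90.2 in DN TILs. Those of E.G7 lymphoma and thymocytes summed to 17.1 and 24.3, 5.08 and 6.87 and 25.9 and 26.0 CPM in that order. The 13 mitochondrial genes took 1.41% and 1.37% of counts in Bcl6+, 1.06% and 1.07% in TIM-3+ and 1.58% and 1.56% in DN TILs. Their part in the differences of the cytoskeleton genes was not tested.

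In OT-I cells Bcl6 overexpression came with higher levels of the monomer-binding genes Tmsb10, Tmsb4x and Pfn1 and of Actb, and with lower levels of 4 genes of severing, capping and turnover. Of the 47 genes 15 were higher and 13 lower in Bcl6-overexpressing than in control cells, beside 25.4% of genes higher and 23.4% lower over all 9669 tested, so the counts are close to the background. Of the called genes 8 were higher and 6 lower by at least 2-fold, beside 16.2% and 7.85% of all genes. The median log2 fold change was 0.03, against 0.00 over all genes.

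The largest rise of the 47 genes was in the monomer pool, in Tmsb10. After length and GC trends were removed Tmsb10 lay under Myl6 and Actn1, with values given below. Tmsb10 had 2711 and 1920 CPM in Bcl6-overexpressing and 148 and 137 CPM in control cells, a log2 fold change of 4.03 (SE 0.21, adjusted p = 2.6e-12), or 16.3-fold. Tmsb4x (ENSMUSG00000049775, mm10 chromosome X, 167207093 to 167209315, minus strand) had 5642 and 6681 CPM in Bcl6-overexpressing and 977 and 721 CPM in control cells, a log2 fold change of 2.86 (SE 0.20, adjusted p = 2.3e-10). Pfn1 had 4652 and 3964 CPM in Bcl6-overexpressing and 1647 and 1156 CPM in control cells, a log2 fold change of 1.62 (SE 0.20, adjusted p = 8.7e-07). None of these groups overlapped, and the fourth gene of the role, Cap1, which encodes cyclase-associated protein 1, was at 0.24 (adjusted p = 0.27).

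Actb rose with them and Actg1 did not pass the test. Actb took 1.94% and 2.81% of counts in Bcl6-overexpressing and 0.814% and 0.739% in control libraries, with the mean share 3.06 times as high in the overexpressing cells. Its level was 19975 and 28271 CPM in Bcl6-overexpressing and 8108 and 7149 CPM in control cells, a log2 fold change of 1.66 (SE 0.20, adjusted p = 8.9e-07). Actg1 had 939.6 and 1042 CPM in Bcl6-overexpressing and 1196 and 1211 CPM in control cells, and its log2 fold change of -0.28 (SE 0.17, adjusted p = 0.17) missed the threshold. Without Bcl6-overexpressing replicate 2 Actg1 was called lower, at -0.36 (adjusted p = 0.021), and with TPM scaling it was called at -0.62 (adjusted p = 0.0015), as it was after length and GC trends were removed (-0.60, adjusted p = 0.00024).

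Within the Arp2/3 complex the subunits went in opposite directions. Arpc3 (ENSMUSG00000029465, mm10 chromosome 5, 122391878 to 122414184, plus strand) had 176 and 183 CPM in Bcl6-overexpressing and 52.6 and 41.2 CPM in control cells, a log2 fold change of 1.93 (SE 0.19, adjusted p = 4.2e-08). Arpc5 (ENSMUSG00000008475, mm10 chromosome 1, 152766542 to 152775597, plus strand) had 351 and 504 CPM in Bcl6-overexpressing and 1277 and 1167 CPM in control cells, a log2 fold change of -1.51 (SE 0.19, adjusted p = 1.4e-06). Actr3 had 497 and 774 CPM in Bcl6-overexpressing and 1578 and 1570 CPM in control cells, a log2 fold change of -1.31 (SE 0.20, adjusted p = 1.5e-05). Arpc4 and Arpc2 were lower by smaller amounts, at -0.47 and -0.45, and Actr2 and Arpc1b did not pass the test at -0.01 and 0.07. The calls of Arpc2 and Arpc4 were lost without control replicate 1, without control replicate 2, with no filter and with limma, whereas those of Arpc3, Arpc5 and Actr3 were made under every alternative tried.

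The alpha subunits of capping protein, which blocks the fast-growing filament end, had the largest falls before length and GC trends were removed. With these trends removed the fall of Capza2 was much smaller, with the value given below. Capza1 (ENSMUSG00000070372, mm10 chromosome 3, 104822779 to 104864505, minus strand) had 106 and 197 CPM in Bcl6-overexpressing and 777 and 776 CPM in control cells, a log2 fold change of -2.36 (SE 0.22, adjusted p = 2.6e-08), or 5.12-fold lower. Capza2 had 151 and 261 CPM in Bcl6-overexpressing and 660.0 and 645 CPM in control cells, a log2 fold change of -1.66 (SE 0.21, adjusted p = 1.6e-06). The beta subunit gene Capzb, with which either alpha subunit pairs, had 821 and 839 CPM in Bcl6-overexpressing and 1082 and 975 CPM in control cells (adjusted p = 0.13). Dstn, the gene of the cofilin relative destrin, was lower at -0.96 and Capg, a leukocyte capping protein gene, at -0.46 (adjusted p = 0.049), while Cfl1 was at 0.44 (adjusted p = 0.054).

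Bundlers and linkers were called in both directions, and the myosin chains called were higher. Actn1 had 44.8 and 37.9 CPM in Bcl6-overexpressing and 5.95 and 6.72 CPM in control cells, a log2 fold change of 2.71 (SE 0.26, adjusted p = 2.8e-08). Myl6 (ENSMUSG00000090841, mm10 chromosome 10, 128490860 to 128494145, minus strand) had 1383 and 1016 CPM in Bcl6-overexpressing and 183 and 145 CPM in control cells, a log2 fold change of 2.87 (SE 0.20, adjusted p = 2e-10). Myh9 was higher at 1.18 (SE 0.17, adjusted p = 7.2e-06), Tln1 at 0.79, Evl at 0.86, Vasp at 0.62 and Flna at 0.46. The call of Flna was lost with library totals, with TPM scaling (0.11), and without control replicate 1, control replicate 2 or Bcl6-overexpressing replicate 1. Lower were Msn at -1.06 (SE 0.17, adjusted p = 3.7e-05), Lcp1 at -0.96, Vcl at -0.73 and Rdx at -0.61. Of the activators, Wasf2 and Was were higher at 0.89 and 0.47. Cdc42 had 440.2 and 599 CPM in Bcl6-overexpressing and 1157 and 1157 CPM in control cells, a log2 fold change of -1.15 (SE 0.18, adjusted p = 2.6e-05). Dock8 was higher at 0.80 and Rac2 and Dock2 did not pass the test. Without control replicate 1 fewer members were called lower, and so were fewer of all genes.

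**Figure D3:**
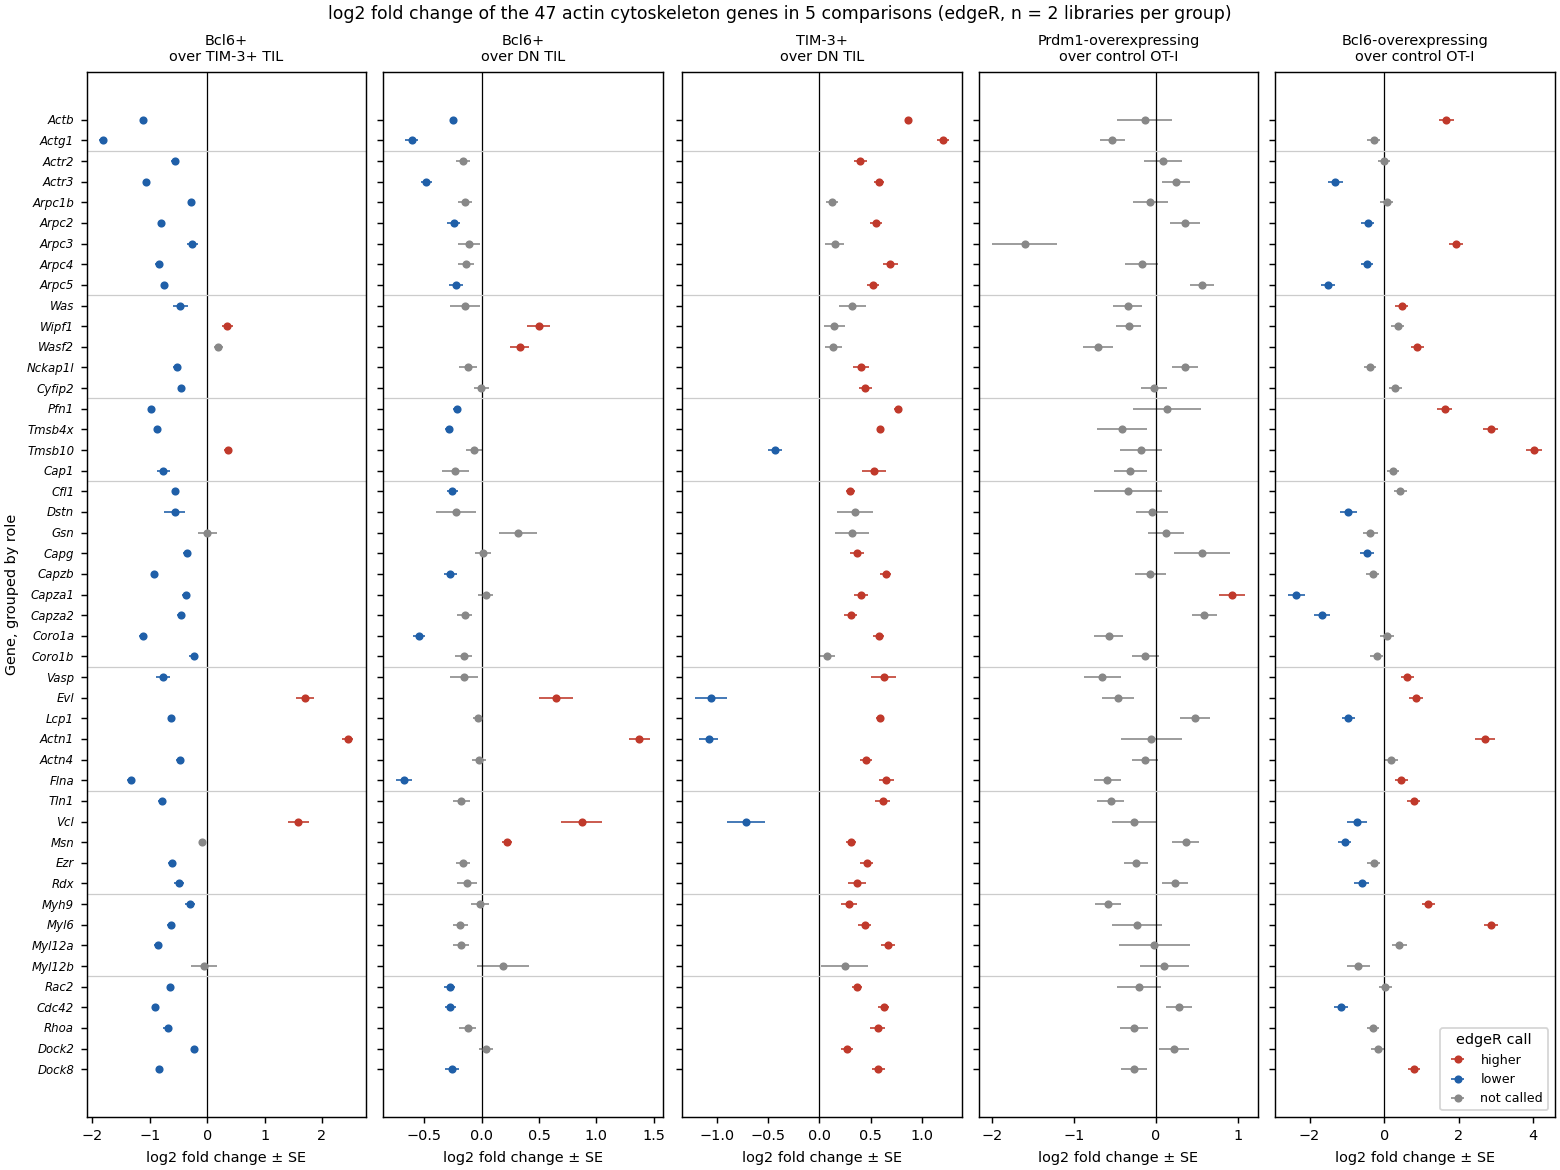
log2 fold change with its SE for each of the 47 genes (rows, grouped by role) in the 5 comparisons (panels, each with its own horizontal scale). Red points were called higher and blue lower at an edgeR adjusted p under 0.05; TIL panels lie mostly to 1 side of 0, at medians of -0.56, -0.15 and 0.41, and the Bcl6-overexpressing panel spreads to both sides, from -2.36 to 4.03.

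Base composition and other cells' markers ran with the Bcl6-overexpressing comparison. Over all genes the log2 fold change increased with the GC content of the longest transcript (Spearman correlation 0.488 over 9553 genes that share the same 4 libraries), and over the 47 genes the correlation was 0.574. The median GC content was 54.4% in the 15 higher and 46.2% in the 13 lower genes. With gene length the correlation was -0.253 over the same 9553 genes and -0.0522 over the 47 genes. After trends with length and GC content were removed per library, an alternative chosen after seeing the data, 11 of the 15 stayed higher (not Flna, nor Was, Vasp and Evl, which turned to -0.10, -0.02 and -0.05) and 12 of the 13 stayed lower (not Rdx), with 14 higher and 20 lower in all. Over all genes 21.9% were then higher and 28.7% lower, with a median log2 fold change of -0.10. Tmsb10 was then at 2.35, Pfn1 at 0.73, Capza2 at -0.51, Actb at 1.42, Actn1 at 2.47, Myl6 at 2.68 and Capza1 at -1.94. Scaled to TPM, the median over all genes was -0.34, with 17.7% of genes higher and 39.5% lower, and 12 members were higher and 22 lower. The 14 macrophage and monocyte markers summed to 899 and 762 CPM in Bcl6-overexpressing and 184 and 177 CPM in control libraries, with 10 of 10 tested higher and none at 0. Neutrophil markers, 5 of 6 listed, summed to 72.9 and 64.9 CPM in Bcl6-overexpressing and 4.48 and 2.35 CPM in control libraries, where S100a8 was at 0 in both. The 10 fibroblast and smooth muscle markers summed to 5.49 and 3.11 CPM in Bcl6-overexpressing and 58.4 and 67.4 CPM in control libraries. Erythroid markers, 5 of 7 listed, summed to 20.9 and 15.6 CPM in Bcl6-overexpressing and 0.984 and 1.18 CPM in control libraries. Dendritic cell markers summed to 163 and 141 CPM and 200 and 205 CPM in that order. The 10 listed CD8 markers summed to 9140 and 8045 CPM and 7552 and 6701 CPM, with 4 called higher and 1 lower. The part of length, of GC content and of other cells in the changes was not tested.

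**Figure D4:**
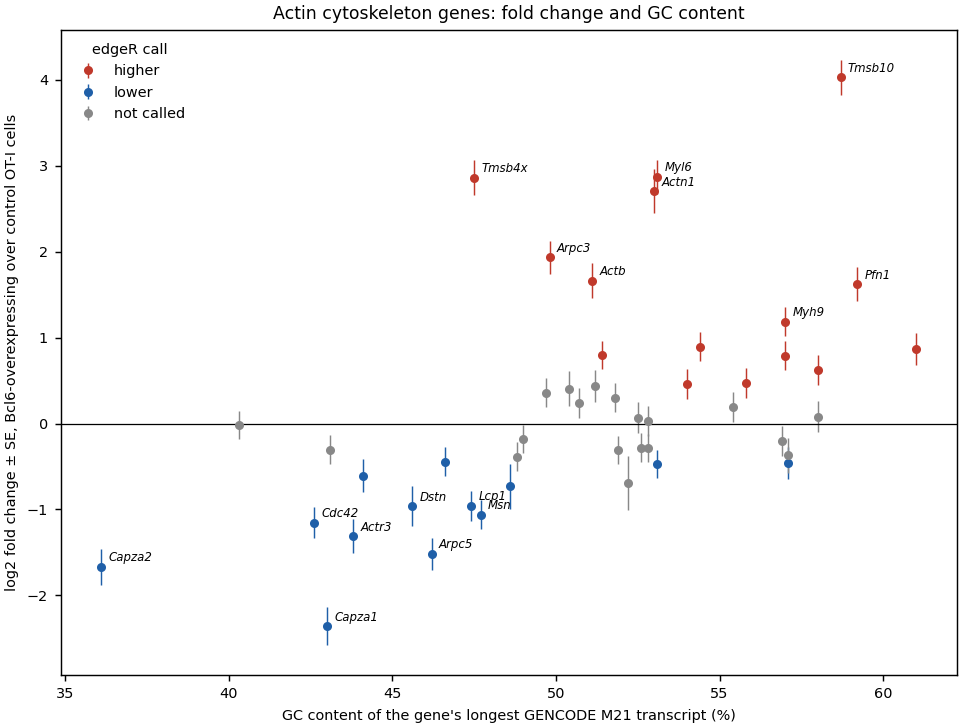
log2 fold change with its SE of Bcl6-overexpressing over control OT-I cells for each of the 47 genes (vertical) against the GC content of its longest annotated transcript in percent (horizontal). Genes called lower lie mostly at low GC content, with a median of 46.2%, and genes called higher mostly at high GC content, with a median of 54.4%; names are given for changes over 0.9 in size.

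The Bcl6-overexpressing comparison and that of Bcl6+ with TIM-3+ TILs share no library. Of the 38 genes lower in Bcl6+ TILs, 11 (28.9%) were lower in Bcl6-overexpressing cells and 11 (28.9%) were higher; those higher, 73.3% of the 15, included Actb, Pfn1, Tmsb4x, Myl6 and Arpc3. Over the 9145 genes tested in both, 37.8% of those lower in Bcl6+ TILs were lower in Bcl6-overexpressing cells and 20.5% were higher. The latter made up 16.7% of all genes higher in Bcl6-overexpressing cells. Of all 47 genes 80.9% were lower in Bcl6+ TILs, so the 73.3% does not exceed the members' own share. Of the 47 genes 31.9% were higher and 27.7% lower in Bcl6-overexpressing cells, close to both shares of 28.9%. Tmsb10, Evl and Actn1 were higher in both comparisons, which is 3 of the 5 genes higher in Bcl6+ TILs (60%) and 20% of the 15. Over the 9145 genes these shares were 27.9% and 19.2%, so the second is close to the background. The call of Evl in Bcl6-overexpressing cells was lost after length and GC trends were removed. Vcl was higher in Bcl6+ TILs and lower in Bcl6-overexpressing cells, where its call was lost without control replicate 1, control replicate 2 or Bcl6-overexpressing replicate 1.

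Few members passed the test in Prdm1-overexpressing cells when libraries were taken as unpaired. With replicate number as a block, 6 were higher and 10 lower, beside 10.1% and 6.61% of all genes. The labels tie no replicate number to a host. Without the block 1 of the 47 genes was higher and 0 lower with edgeR, beside 1.16% and 0.201% of all 9947 genes. The median log2 fold change was then -0.14, against 0.02 over all genes. At an unadjusted p under 0.05 there were 4 higher and 9 lower. The share of all genes at that level was not counted, so these counts show nothing particular to the members. DESeq2 called 1 higher and 2 lower, beside 3.56% and 2.33% of all genes. limma called 0 with either setting, beside at most 0.935% and 0.412% of all genes. The gene called was Capza1, with 1295 and 1547 CPM in Prdm1-overexpressing and 723 and 776 CPM in control cells, a log2 fold change of 0.92 (SE 0.16, adjusted p = 0.048). Its call was lost without control replicate 1 (0.87, adjusted p = 0.34) or control replicate 2 (0.97, adjusted p = 0.27). Capza1 thus lay higher in Prdm1-overexpressing cells and lower in Bcl6-overexpressing cells than in each experiment's own controls. Its call in Prdm1-overexpressing cells was also lost without a filter, with limma and after length and GC trends were removed. Over all genes the correlation of log2 fold change with GC content was -0.271 for Prdm1 and 0.488 for Bcl6 overexpression. The GC content of Capza1 was 43.0%, and the part of GC content was not tested.

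Levels of Actb, Pfn1 and Cfl1 were uneven between the Prdm1-overexpressing libraries and, to a lesser degree, between the control libraries. Actb took 0.893% and 0.455% of counts in Prdm1-overexpressing and 0.927% and 0.679% in control libraries, while its level was 9533 and 4578 CPM in Prdm1-overexpressing and 8990 and 6524 CPM in control cells, a log2 fold change of -0.14 (SE 0.33, adjusted p = 0.86). In CPM both control libraries lay between the overexpressing ones, and the groups overlapped. Pfn1 had 2479 and 954 CPM in Prdm1-overexpressing and 1883 and 1245 CPM in control cells, while Cfl1 had 2039 and 765 CPM in Prdm1-overexpressing and 2105 and 1451 CPM in control cells. In both genes replicate 2 of the overexpressing cells was lowest. For Actb, Pfn1 and Cfl1 replicate 2 was also the lower of the control libraries. Without Prdm1-overexpressing replicate 1 the log2 fold change of Actb was -0.76 and that of Actg1 -0.62. Without Prdm1-overexpressing replicate 2 that of Actb was 0.23. Actg1 had 773 and 685 CPM in Prdm1-overexpressing and 1075 and 1032 CPM in control cells, groups that did not overlap, at -0.53 (SE 0.15, adjusted p = 0.13). The largest change in size was that of Arpc3, with 22.7 and 10.9 CPM in Prdm1-overexpressing and 63.8 and 38.1 CPM in control cells, a log2 fold change of -1.60 (SE 0.40, adjusted p = 0.1) that missed the threshold. Arpc3 was called lower with DESeq2, with library totals, with TPM scaling, with length and GC trends removed (-1.72, adjusted p = 0.02) and without Prdm1-overexpressing replicate 1. Over the 47 genes the Spearman correlation between log2 fold change and GC content was -0.491, and -0.271 over 9846 genes. Macrophage and monocyte markers summed to 376 and 209 CPM in Prdm1-overexpressing and 559 and 491 CPM in control libraries, and neutrophil markers to 86.5 and 103 CPM and 3.87 and 6.35 CPM in that order. Their part was not tested.

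Some related genes differed in their FPKM ratio within libraries, a ratio that is free of library scaling. The Actb to Actg1 ratio was 27.2 and 24.3 in Bcl6+, 14.9 and 16.6 in TIM-3+ and 20.1 and 19.8 in DN TILs. It was 21.1 and 26.9 in Bcl6-overexpressing and 6.73 and 5.86 in their control cells, and 12.2 and 6.63 in Prdm1-overexpressing and 8.3 and 6.27 in their control cells. It was higher in both Bcl6 groups than in the groups they were set against, and the Prdm1 groups overlapped. The Actn1 to Actn4 ratio was 0.811 and 0.766 in Bcl6+, 0.0990 and 0.109 in TIM-3+ and 0.291 and 0.307 in DN TILs. It was 0.0552 and 0.0609 in Bcl6-overexpressing and 0.00992 and 0.0103 in control OT-I cells. The Evl to Vasp ratio was 0.680 and 0.670 in Bcl6+, 0.144 and 0.102 in TIM-3+ and 0.4005 and 0.376 in DN TILs. The Tmsb4x to Tmsb10 ratio was 2.76 and 2.99 in Bcl6+, 7.25 and 6.41 in TIM-3+ and 3.32 and 3.35 in DN TILs. It was 1.94 and 3.24 in Bcl6-overexpressing and 6.16 and 4.9 in control OT-I cells. This ratio was lowest in Bcl6+ among TILs and lower in Bcl6-overexpressing than in control cells, with no overlap. The ratio of Cfl1 to Dstn overlapped between all TIL groups, with 59.1 and 53.6 in Bcl6+, 55.8 and 55.8 in TIM-3+ and 53.3 and 62.2 in DN TILs. With 2 libraries a group no exact test of a ratio can go below p = 0.33, and a ratio shows unequal change without saying which gene changed.

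**Figure D5:**
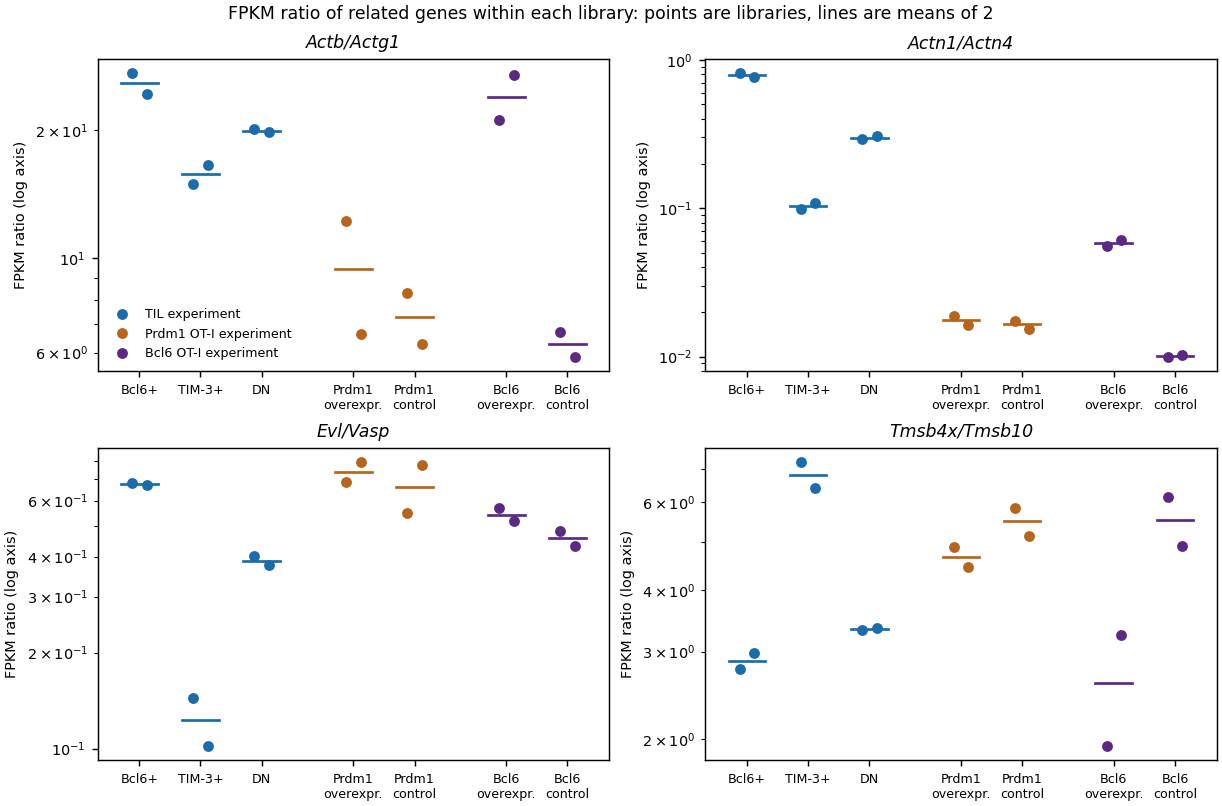
FPKM ratio of 4 pairs of related genes within each library, on log axes; points are libraries and lines are means of 2. Within TILs the Actn1 to Actn4 ratio is highest in Bcl6+ cells, at 0.811 and 0.766, against 0.0990 and 0.109 in TIM-3+ cells; experiments were processed apart and their levels are not compared.

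Per length, Actb was the most abundant member in every library, at 6102 and 6173 FPKM in Bcl6+, 13370 and 14252 in TIM-3+ and 7221 and 7484 in DN TILs, 3217 and 1646 in Prdm1-overexpressing with 3338 and 2452 in control cells, and 7417 and 10486 in Bcl6-overexpressing with 2846 and 2487 in control cells. Vcl had the lowest mean FPKM of the 47 in each TIL group, with 5.56 and 5.76 FPKM in Bcl6+, 2.03 and 1.89 in TIM-3+ and 3.08 and 3.16 in DN TILs. Actn1 had 59.1 and 55.5 FPKM in Bcl6+, 10.6 and 11.2 in TIM-3+ and 21.3 and 23.4 in DN TILs. The 47 genes spanned 1.01 to 14252 FPKM over the 14 libraries.

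A wider set of 150 actin pathway genes in 9 lists was counted beside the members. Between Bcl6+ and TIM-3+ TILs, of 125 tested, 16 were higher and 53 lower in Bcl6+ TILs, with a median log2 fold change of -0.27; over all genes 19.1% were higher and 19.6% lower. The integrin linkage genes had 10 of 16 lower, and the other filament binding and bundling genes 12 of 23 lower and 5 higher. Prex1, a Rac exchange factor gene, had 30.7 and 41.6 CPM in Bcl6+ and 253 and 235 CPM in TIM-3+ TILs, a log2 fold change of -2.75 (SE 0.14, adjusted p = 2.1e-09). Myo1f, a leukocyte class I myosin gene, was at -1.61 and Nedd9, a Cas family adhesion adaptor gene, at -1.55. Higher were Ssh2, a slingshot phosphatase gene whose product activates cofilin, with 206 and 218 CPM in Bcl6+ and 35.8 and 30.3 CPM in TIM-3+ TILs and a log2 fold change of 2.68 (SE 0.12, adjusted p = 6.9e-10). Also higher were Ppp1cb, the catalytic subunit of myosin phosphatase, at 1.90, and Marcksl1, a membrane-bound actin binder, at 1.56. Between Bcl6+ and DN TILs 9 were higher and 26 lower, beside 6.49% and 7.69% of all genes. Swap70, Ppp1cb and Crk led the higher genes at 0.998, 0.98 and 0.96, and Prex1, Myo1f and Rap1b the lower at -1.88, -1.05 and -0.95. Between TIM-3+ and DN TILs 44 were higher and 15 lower, beside 14.9% and 13.2% of all genes. Myo10, Racgap1 and Cotl1 led the higher genes at 1.20, 1.08 and 0.98, and Ssh2, Arhgap26 and Marcksl1 the lower at -2.21, -1.12 and -1.01.

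In Bcl6-overexpressing cells 26 of 124 pathway genes tested were higher and 24 lower, with a median log2 fold change of -0.01; over all genes 25.4% were higher and 23.4% lower, close to these shares. Marcksl1, with 73.0 and 69.1 CPM in Bcl6-overexpressing and 8.17 and 18.6 CPM in control cells, was at 2.40 (SE 0.28, adjusted p = 7e-07). Also higher were Gmfg, a hematopoietic glia maturation factor gene whose product removes Arp2/3 branches, at 2.07, and Cotl1, the coactosin-like gene, at 1.998. Gmfb, the close relative of Gmfg, was lower at -1.09, as were the tropomyosin gene Tpm4 at -1.13 and the WAVE complex gene Abi1 at -1.11. In Prdm1-overexpressing cells 2 of 129 passed the test, the unconventional myosin genes Myo1d at 2.30 (SE 0.36, adjusted p = 0.036) and Myo6 at 2.24 (SE 0.29, adjusted p = 0.025), both higher and both named after their values were seen.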

How the data were processed

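Per the file headers, the deposited files give a raw read count and an FPKM value for each gene and library; the authors computed both. Per the submitters' processing notes the build was mm10, the TIL tools named were edgeR, DESeq2, featureCounts, Subread and Bowtie2, and the OT-I tools were RSEM, HISAT2, DESeq2 and featureCounts; neither roles nor versions are stated there. Counts were tested with edgeR 4.0.16 (quasi-likelihood, TMM scaling, R 4.3.3): 6 TIL libraries in 1 fit and 4 libraries in each OT-I fit, unpaired, over genes averaging 1 FPKM or more, two-sided, with Benjamini-Hochberg adjustment over all genes tested and a threshold of 0.05. Each SE was taken as |log2 fold change| divided by the root of the F statistic. The tests were tried on simulated counts with planted changes. Alternatives used library totals, DESeq2 1.42.0, transcripts-per-million scaling, no filter, limma 3.58.1 on log2(FPKM + 1) and log2(FPKM + 0.1), a replicate block, only the 2 groups, each library left out, and, added after seeing the data, removal of length and GC trends (GENCODE M21). Per-library values were given for Actb, Actg1 and, per comparison, the 5 called members with the largest change in each direction whose groups did not overlap, and for up to 3 pathway genes a direction with at least 5 FPKM; other values were chosen after they were seen. The members and lists were chosen with earlier results of these data known. edgeR's common biological variation between replicates came to 0.149 (TIL), 0.227 (Prdm1) and 0.164 (Bcl6). Gene positions are those of GENCODE M21. Promoter windows came from RefSeq, with 43 of 47 members matched by symbol.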

Additional observations from a re-analysis of the deposited data

How the results depend on the processing

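Of 570 alternative values for 45 named member results, 538 kept direction and side of the threshold, 24 fell under it, 6 passed it and 2 turned sign: Actb between Prdm1-overexpressing and control cells ranged from -0.76 to 0.23 with single libraries left out, being 0.11 without control replicate 1. Apart from those of Actb and Actg1, these results were named because they were called with the largest changes. Their stability therefore says little of the other members. The median log2 fold change of members, Bcl6+ over TIM-3+ TILs, was -0.38 with total counts, -0.30 with TPM scaling, -0.62 without a filter, -0.61 and -0.62 with limma, -0.62 with length and GC trends removed, and -0.60 to -0.56 with single libraries left out. For Bcl6+ over DN TILs it was -0.13 with total counts, -0.070 with TPM scaling and -0.17 without a filter. It was -0.16 with either limma setting, -0.14 with trends removed and -0.16 to -0.13 with single libraries left out. For TIM-3+ over DN TILs it was 0.24, 0.22, 0.44, 0.45 (both limma settings), 0.52 and 0.42 to 0.45 in that order. In the Bcl6 experiment it was -0.31 with TPM scaling, -0.15 with trends removed and -0.16 to 0.16 with single libraries left out; members called lower were 22, 20 and 8 to 17. In the Prdm1 experiment members called lower were 1 with total counts, 2 with DESeq2, 1 with TPM scaling, 1 with trends removed and 0 to 9 with single libraries left out; members called higher were 0 without a filter, with limma and with trends removed, and 0 to 3 with single libraries left out. With a replicate block 6 were higher and 10 lower there, beside 10.1% and 6.61% of all genes. Replicate numbers pair nothing by the labels: deviations of same-numbered libraries correlated at 0.024, 0.00067 and 0.032 in TILs, 0.32 for Prdm1 libraries and -0.064 for Bcl6 libraries, and the block moved no other member count past 1.5 times. The cause of these shifts was not tested. With 2 libraries a group, the spread estimate rests on sharing across genes.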
